A study of Danio rerio with 6 samples.

Results

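Linker histones and replication-independent core histone variants were described in RNA from zebrafish at 5 days after fertilization. The genes were selected by name: the list held 10 symbols (histh1l, h1fx, h1f0, h1m, h2afx, h2afva, h2afvb, h2afy, h2afy2 and h3f3a). Of these, 9 were found among the 32053 rows of the count tables, h3f3a was not analysed here, and 8 passed the filter on low counts that left 23167 rows for testing. A name on several rows would have been represented by the row chosen by its total count over the 6 libraries, but each of the 9 names stood on 1 row, so no measured value decided a row. The list itself was drawn up with earlier results of the same contrast known, so the counts of called genes and the adjusted p-values below describe these genes and are not independent evidence about them.

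The study compared 3 libraries from embryos kept in 2 mg/L of BP-3, which commonly stands for benzophenone-3, an ultraviolet filter, with 3 control libraries titled WT, all of the same age and all labelled as zebrafish with no further strain name. Total RNA came from tissue labelled intestinal that was taken out with microforceps. Nothing in the labels says whether the replicates were separate clutches or pools, so p-values measure only the spread between these libraries, which may be technical. For exposed replicates 1 to 3 the treatment field names BP-3, BP-4 and BP-5 in turn, whereas titles and protocol give BP-3 throughout, and these libraries were treated as a single group.

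In the nucleosome, DNA is wrapped around a core of histones H2A, H2B, H3 and H4, and a linker histone of the H1 family binds where the DNA enters and leaves the core and favours compact chromatin. Most histones are made in bulk while DNA is replicated, from messenger RNAs that end in a stem-loop instead of a poly(A) tail. Replacement linker histones and core variants such as H2A.X, H2A.Z, macroH2A and H3.3 are made throughout the cell cycle, usually from polyadenylated messages, and are exchanged into chromatin in cells that no longer divide.

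Total counts lay between 23567603 and 41726516 reads per library. Both replicate 3 libraries stood apart from the others: over 19618 rows, their deviations from the mean of their own group correlated at 0.43 with each other. With those of replicates 1 and 2 of the opposite group they correlated between -0.29 and -0.25. These negative values add no separate support, since the deviations of a row sum to 0 within a group. Markers of tissues other than gut were abundant in all libraries. The 26 skeletal muscle markers summed to between 91417 and 106584 CPM (counts relative to library size, scaled by TMM) and the 20 enterocyte markers to between 9041 and 13704 CPM, none of either list being at 0 in all libraries. CPM is not corrected for transcript length, so levels are compared between libraries for the same gene and not between genes.

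The 3 linker histone genes with appreciable counts were lower in the BP-3 libraries, to between 51.2% and 61.2% of control, while the 5 core variant genes lay between 91.7% and 116% of control. In the quasi-likelihood test of edgeR, adjusted by Benjamini-Hochberg over all 23167 rows, 3 of 8 tested members passed an adjusted p of 0.05, all of them lower and all linker histones. Across all tested rows 10.6% passed in either direction and 4.29% passed as lower. Abundant rows passed as lower more often, namely 93 of the 841 rows with a mean log2 CPM at least that of h1fx. Groups did not overlap for 6 of the 8 members, against 31.0% of all rows. For 4 of the 8 members BP-3 was the lower group without overlap, against 14.9% of all rows. These were the 3 linker genes and h2afy2, which was not called. Of the 7183 rows without overlap, BP-3 was the lower group in 3450. The median log2 fold change was -0.92 for the 3 linker genes and 0.14 for the 5 core variant genes, beside -0.001 for all rows.

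**Figure D1:**
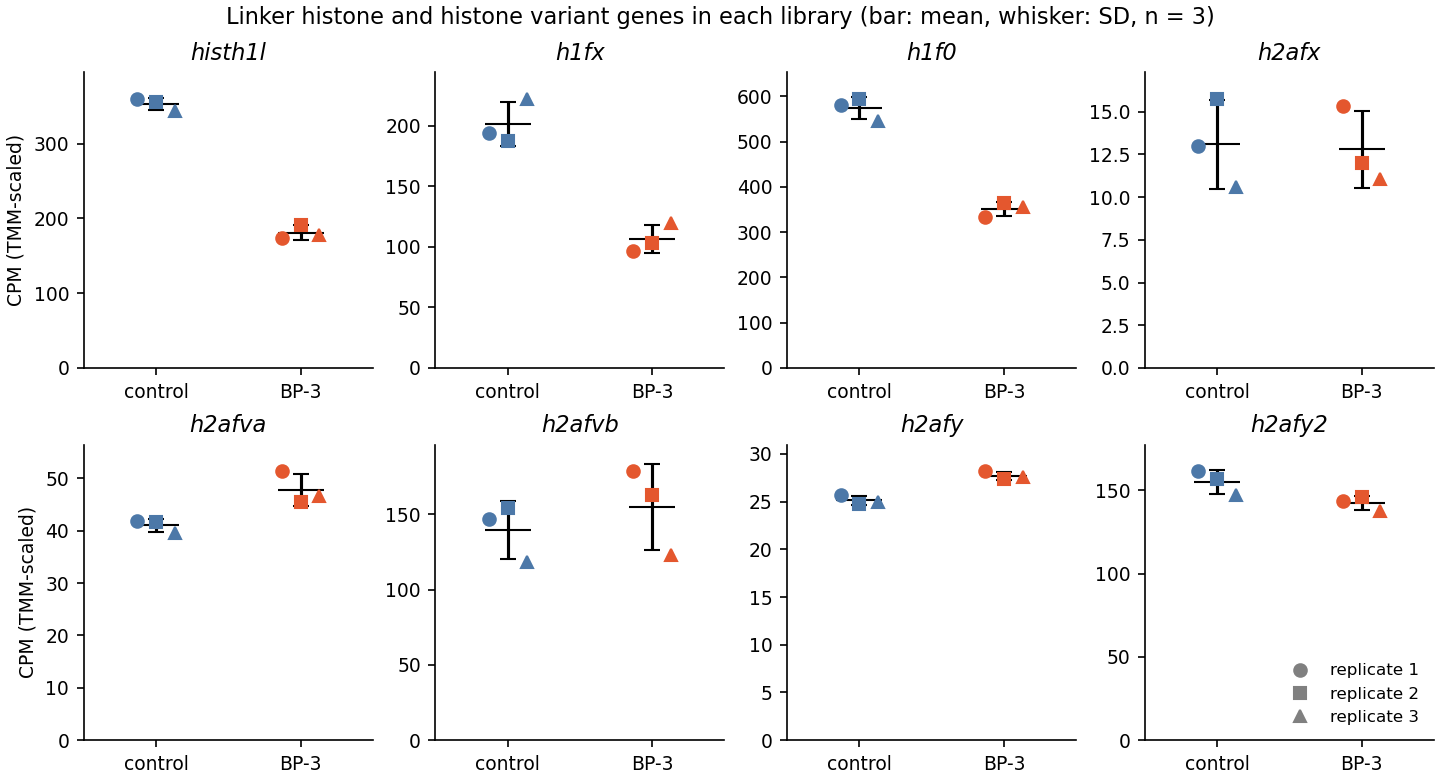
CPM (TMM-scaled, vertical axes from 0) of the 8 tested members in each control and BP-3 library; the marker shape gives the replicate number, the bar the mean and the whisker the SD of 3 libraries. In the panels of histh1l, h1fx and h1f0 all BP-3 points lie far below all control points, whereas in the core variant panels the groups lie close together.

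Among the linker histones, histh1l encodes an H1 protein and showed the smallest adjusted p of the list. Its level was 174, 192 and 177 CPM in exposed replicates 1 to 3 and 359.5, 356 and 344 CPM in the controls of the same numbers. Every BP-3 library was well below every control library, and replicates within a group differed little. The mean was 181 ± 9.59 CPM after exposure and 353 ± 8.17 CPM without it (SD, n = 3). This is a log2 fold change of -0.96 ± 0.069 (SE), or 1.95-fold lower, with an adjusted p of 3.9e-05 in edgeR's quasi-likelihood test.

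The gene h1fx encodes the divergent linker histone known in mammals as H1x. It stood at 96.5, 103 and 119.5 CPM in exposed replicates 1 to 3 and at 194, 188 and 222 CPM in the controls of the same numbers. Replicate 3 was the highest library of both groups, and the groups did not overlap. Means of 106.5 ± 11.8 and 201.5 ± 18.2 CPM (SD, n = 3) correspond to a log2 fold change of -0.92 ± 0.097 (SE), 1.89-fold lower (edgeR adjusted p = 0.000378).

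The gene h1f0 encodes the replacement linker histone H1.0, which in mammals accumulates in cells that have left the cell cycle. Its BP-3 libraries held 334, 364.5 and 356 CPM and its control libraries 582, 594 and 546.5 CPM, in the order of replicates 1 to 3. The highest exposed library was again far below the lowest control library. Means were 351 ± 15.7 and 574 ± 24.7 CPM (SD, n = 3), at a log2 fold change of -0.71 ± 0.071 (SE), 1.63-fold lower (edgeR adjusted p = 0.000311). The 95% interval of this value, -0.87 to -0.55, overlaps that of histh1l, -1.12 to -0.81. Such overlap is no comparison of the genes, whose ratio within libraries is given below.

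The maternal linker histone gene h1m, which in zebrafish is expressed in oocytes, early embryos and primordial germ cells, was barely detected. It had 0, 0 and 7 counts in exposed replicates 1 to 3 and 0, 2 and 7 counts in the controls of the same numbers, and it was removed by the filter. A count of 0 allows up to 3 counts, or 0.073, 0.086 and 0.083 CPM in the 3 libraries at 0, where this limit covers counting error only. No difference was detectable at this depth. The 15 germ cell markers summed to between 31 and 36 CPM in BP-3 and to 34 CPM in each control library. Past the threshold were 0 of 14 tested markers, against 10.6% of all rows. Their median log2 fold change was 0.22, with values on both sides of 0. The markers with the smallest adjusted p were piwil2, ca15b, tdrd1 and gra, at 0.48, 1.45, -0.3 and 0.76. Of these, ca15b had only 53 counts over all libraries.

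Set within numbered replicates, the level in BP-3 was 48.3%, 53.9% and 51.6% of the control library of the same number for histh1l. For h1fx the shares were 49.7%, 55.1% and 53.8%, and for h1f0 they were 57.4%, 61.4% and 65.1%. The share in replicate 3 lay between the other shares for histh1l and h1fx and above them for h1f0. Replicate 1 of the exposed group, whose treatment field alone reads BP-3, gave the lowest share for each of these genes. With that library as the only exposed one, all 3 linker genes passed the threshold, with log2 fold changes of -1.02, -1.06 and -0.78 for histh1l, h1fx and h1f0 (edgeR adjusted p = 0.00547, 0.00963 and 0.0188). In that fit, which assumes that the lone library varies like the controls, 1.82% of all rows passed.

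In the table of all rows, 189 of 23167 rows had a lower log2 fold change than histh1l, 218 had a lower one than h1fx and 457 a lower one than h1f0. Among the 841 rows with a mean log2 CPM at least that of h1fx, 93 were called lower. Of these 841 rows, 1 had a log2 fold change as low as that of histh1l, and it was histh1l itself. The cutoff was set at h1fx as the called member of lowest abundance, so this rank depends on the results. Some less abundant rows had a lower value, such as cryaa at -1.11.

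**Figure D2:**
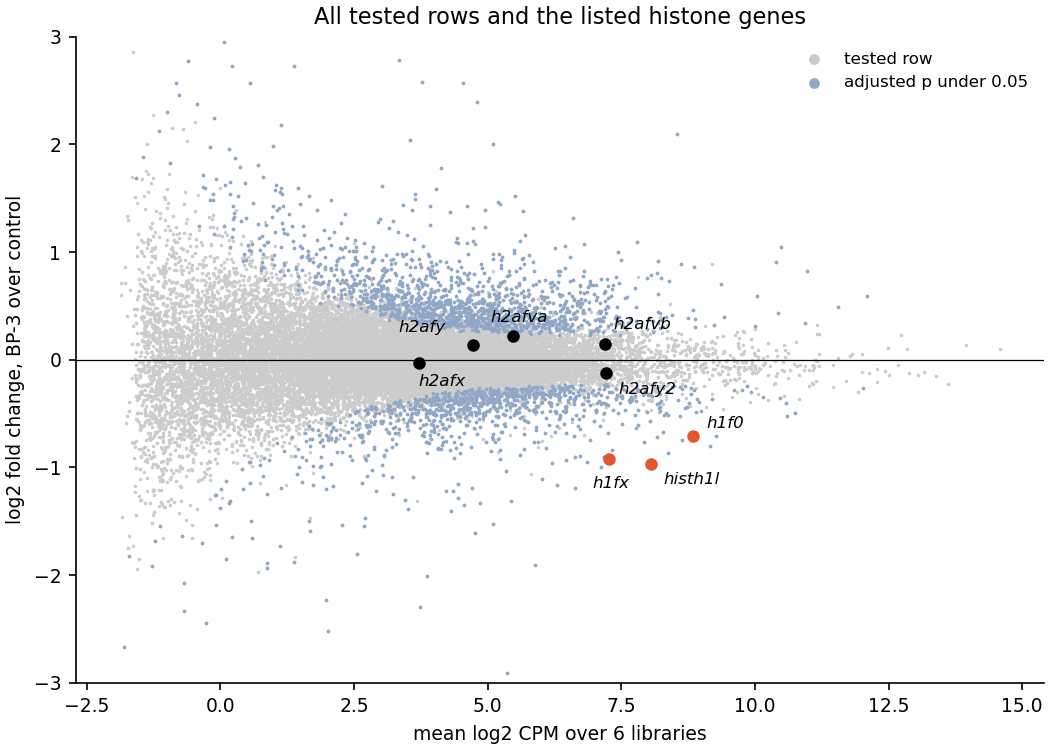
Log2 fold change of BP-3 over control (vertical) against mean log2 CPM over 6 libraries (horizontal) for the 23167 tested rows, with rows past an adjusted p of 0.05 in blue, the called members in red and the other tested members in black; 15 rows lie beyond the vertical limits of 3. The 3 linker genes lie at the lower edge of the rows of high count, and the 5 core variant genes lie near 0.

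Ratios of counts taken within a library do not depend on scaling between libraries. The summed counts of histh1l, h1fx and h1f0 divided by those of the 5 core variants gave 1.45, 1.68 and 1.89 in exposed replicates 1 to 3. The same ratio was 2.92, 2.89 and 3.27 in control replicates 1 to 3. The lowest control library thus exceeded the highest BP-3 library, and in both groups replicate 3 was the highest. The groups were far apart in the numerator and overlapped in the denominator, so their separation follows from the linker gene levels given above. The linker sum was 639 ± 30.3 CPM after exposure and 1129 ± 14.1 CPM without it, and the core variant sum 385.5 ± 36.0 and 374 ± 29.1 CPM (SD, n = 3).

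Ratios between linker genes were taken in the same way. The ratio of histh1l to h1f0 was 0.520, 0.526 and 0.499 in exposed replicates 1 to 3 and 0.617, 0.599 and 0.629 in the controls of the same numbers, with no overlap. The ratio of histh1l to h1fx overlapped between the groups, at 1.71 ± 0.20 in BP-3 and 1.76 ± 0.19 in control (SD, n = 3). That of h1fx to h1f0 overlapped too, at 0.303 ± 0.029 in BP-3 and 0.352 ± 0.048 in control (SD, n = 3). No p-value is given for these ratios, since the members were chosen with results known, and an exact permutation test of 3 against 3 libraries cannot give a p below 0.1.

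**Figure D3:**
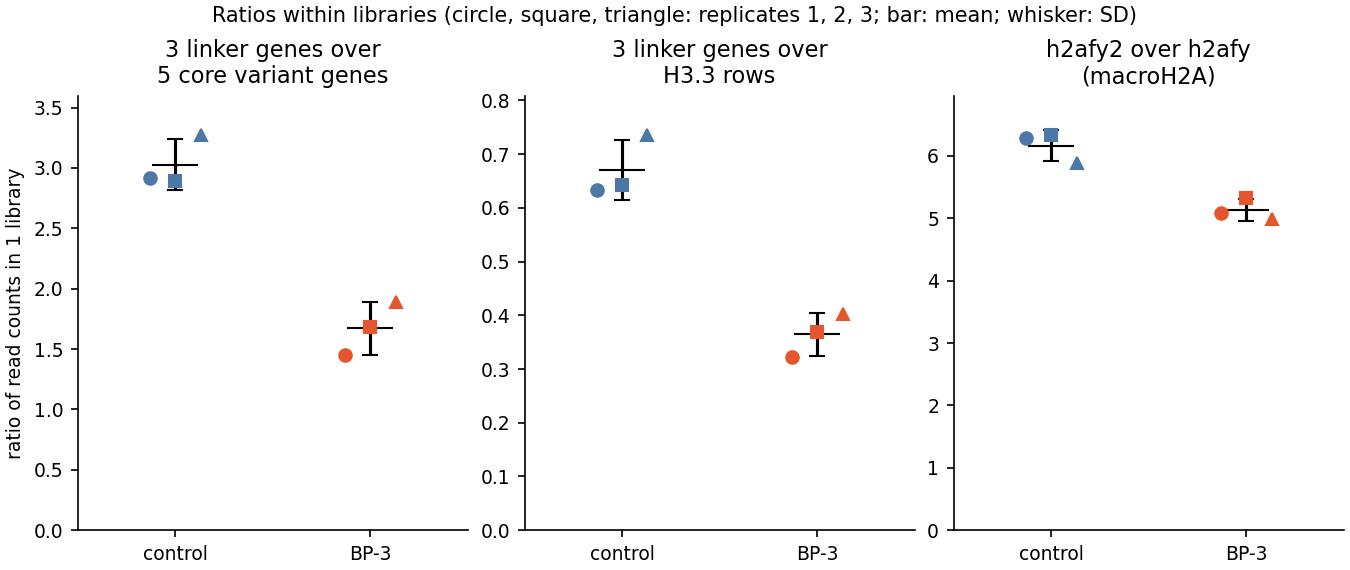
Ratios of read counts within single libraries (vertical axes from 0) for the 3 linker genes over the 5 core variant genes, the 3 linker genes over the H3.3 rows, and h2afy2 over h2afy; marker shapes give replicates 1 to 3, bars the mean and whiskers the SD. In each of the 3 panels all BP-3 libraries lie below all control libraries. In each panel this follows from the levels of the genes and adds no separate result. Of the ratios not drawn, that of histh1l to h1f0 did not overlap between the groups. Those of h1fx to h1f0, histh1l to h1fx, h2afvb to h2afva and h2afx1 to h2afx did overlap.

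Of the core variants, h2afx encodes H2A.X, which is phosphorylated beside DNA breaks. It stood at 15.3, 12.0 and 11.1 CPM in exposed replicates 1 to 3 and at 13.0, 15.7 and 10.6 CPM in the controls of the same numbers. The groups overlapped, and the log2 fold change of -0.03 ± 0.16 (SE) had a 95% interval from -0.39 to 0.33 (edgeR adjusted p = 0.934). Its sign turned, to 0.02, 0.06 and 0.12, when BP-3 replicate 2, BP-3 replicate 3 or control replicate 2 was left out. The related row h2afx1, whose name places it in the same family and which is no member, stood at 152 ± 4.01 CPM after exposure and 164 ± 15.2 CPM without it (SD, n = 3; edgeR adjusted p = 0.405).

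The genes h2afva and h2afvb both encode H2A.Z, the variant found around the start sites of many genes. For h2afva the BP-3 libraries held 51.4, 45.4 and 46.6 CPM and the control libraries 41.8, 41.8 and 39.6 CPM, in the order of replicates 1 to 3. The groups did not overlap, but the log2 fold change of 0.22 ± 0.076 (SE) did not pass the threshold (edgeR adjusted p = 0.0958). With the replicate number as a block it did (edgeR adjusted p = 0.0259), in a fit where 21.7% of all rows passed. For h2afvb the levels were 179, 163 and 123 CPM in BP-3 and 147, 154 and 118 CPM in control, with replicate 3 the lowest of each group. The groups overlapped, and the log2 fold change was 0.15 ± 0.14 (SE), with a 95% interval from -0.16 to 0.46 (edgeR adjusted p = 0.543). It was 0.04 without BP-3 replicate 1 or without control replicate 3, and 0.29 without BP-3 replicate 3, never past the threshold.

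The macroH2A genes h2afy and h2afy2 encode H2A variants with a large extra domain that are enriched in silent chromatin in mammals. In exposed replicates 1 to 3 h2afy lay at 28.2, 27.4 and 27.6 CPM, and in the controls of the same numbers at 25.7, 24.7 and 25.0 CPM. All exposed libraries were slightly above all controls, at a log2 fold change of 0.14 ± 0.07 (SE) that did not pass the threshold (edgeR adjusted p = 0.238). Expression of h2afy2 was 143, 146 and 138 CPM in BP-3 and 161, 156 and 147 CPM in control, with no overlap. Its log2 fold change of -0.12 ± 0.068 (SE) had the opposite sign and did not pass either (edgeR adjusted p = 0.282). The ratio of h2afy2 to h2afy within a library was 5.09, 5.32 and 4.99 in BP-3 and 6.28, 6.33 and 5.89 in control. That this ratio separates the groups follows from the levels of both genes given above and adds no separate result.

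**Figure D4:**
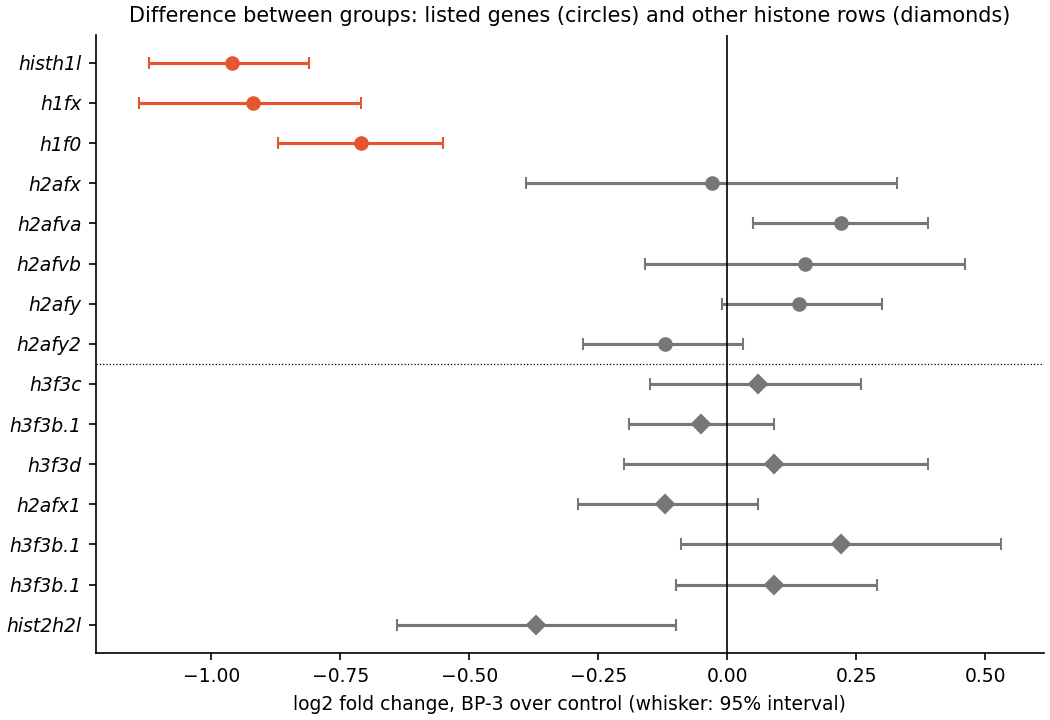
Log2 fold change of BP-3 over control (horizontal) with its 95% interval for the 8 tested members (circles, above the dotted line) and for the other histone rows with at least 1000 counts over all libraries (diamonds), with rows past an adjusted p of 0.05 in red. The intervals of histh1l, h1fx and h1f0 lie wholly below 0, and those of all H3.3 rows and of all core variants except h2afva include 0. That of hist2h2l, not called in this fit, runs from -0.64 to -0.10 and so lies below 0 too.

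Apart from the members, 67 further rows had histone names, by their own symbol or by the synonyms of the RefSeq gene table of assembly GRCz12tu. Of these, 11 passed the filter and 0 passed the threshold in either direction by edgeR, against 10.6% of all tested rows. Their median log2 fold change was 0.06. With the replicate block 1 of the 11 was higher, an h3f3b.1 row at 0.24 ± 0.076 (SE; edgeR adjusted p = 0.0493), and 1 was lower, hist2h2l. In that fit 21.7% of all tested rows passed, so with 11 rows neither count sets these genes apart from all rows. The H3.3 protein that h3f3a would encode is also the product of h3f3b.1, h3f3c and h3f3d, which stood on 5 rows. How reads were divided among these rows is uncertain. Their log2 fold changes lay between -0.05 and 0.22, and their sum was 1764 ± 132 CPM after exposure and 1692 ± 154 CPM without it (SD, n = 3). The ratio of the 3 linker genes to the H3.3 rows was 0.322, 0.368 and 0.403 in exposed replicates 1 to 3 and 0.634, 0.643 and 0.735 in the controls of the same numbers.

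Rows named hist1h or hist2h, the names of replication-dependent genes, were close to empty. Leaving out hist2h2l, 56 such rows held 916 counts in all 6 libraries together, and the fullest of them held 127. Many of these rows share a name, such as hist1h4l, and how reads were divided among or kept for such copies is uncertain. The exception, hist2h2l, stood at 56.5, 62.4 and 47.4 CPM in exposed replicates 1 to 3 and at 74.5, 79.6 and 60.3 CPM in the controls of the same numbers. Its groups overlapped, and its log2 fold change of -0.37 ± 0.12 (SE) did not pass the threshold (edgeR adjusted p = 0.0859). Within numbers it lay at 75.8%, 78.3% and 78.6% of control, and with the replicate number as a block it passed, at -0.37 ± 0.05 (SE; edgeR adjusted p = 0.000935). The labels do not say whether RNA was selected by its poly(A) tail, and any part of such a step in the low counts was not tested.

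The lists that follow are read against all tested rows, of which 6.26% were called higher and 4.29% lower, and, with the replicate number as a block, 11.9% higher and 9.84% lower. Of 34 tested genes of histone chaperones and variant exchange 2 were higher and 0 lower (5 and 0 with the block), with a median log2 fold change of 0.09. The ATPase gene ruvbl1, of the complexes that insert H2A.Z, rose from 29.1 ± 3.16 to 40.5 ± 0.373 CPM (SD, n = 3; edgeR adjusted p = 0.00841). The gene ssrp1a, a subunit of the chaperone FACT, rose 1.32-fold (edgeR adjusted p = 0.0164). Of 10 tested genes of histone mRNA processing 3 were higher and 0 lower (4 and 0 with the block), with a median of 0.19. They were slbp, which binds the stem-loop of replication-dependent messages, at 1.31-fold, the nuclease gene cpsf3 at 1.25-fold and the exonuclease gene eri1 at 1.34-fold (edgeR adjusted p = 0.0203, 0.0433 and 0.0488).

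Genes of dividing cells are set beside the linker histones, since H1.0 marks cells outside the cell cycle in mammals. Any link between these genes and the linker histone difference was not tested. Of 30 tested proliferation markers 6 were higher and 0 lower, or 19 and 1 with the replicate block, with a median log2 fold change of 0.21, and their sum lay between 1560 and 1661 CPM in BP-3 and between 1331 and 1408 CPM in control. The ribonucleotide reductase gene rrm1 rose 1.35-fold and the mitotic kinase gene aurka 1.43-fold (edgeR adjusted p = 0.00579 and 0.0133). The cell cycle inhibitor gene cdkn1a, on another list, was higher too, at 1.75-fold (edgeR adjusted p = 0.00193).

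Markers of other tissues also differed between the groups, and their part in the linker histone difference was not tested. Their counts stand against the same shares of all rows, 10.6% called in either direction without the block and 21.7% with it. In bulk tissue, fewer cells of a type and less RNA per cell cannot be told apart. Of 25 retina and lens markers 12 were lower and 0 higher, or 18 and 1 with the replicate block, and their sum lay between 8452 and 9670 CPM in BP-3 and between 10282 and 11810 CPM in control, a mean of 80.7% of control. Of 21 epidermis markers 4 were lower and 1 higher, or 10 and 4 with the block, with sums of 23120 to 24652 CPM in BP-3 and 25717 to 27726 CPM in control. Of 22 central nervous system markers 3 were lower and 1 higher, or 9 and 1 with the block, with sums between 3090 and 3219 CPM in BP-3 and between 3471 and 3608 CPM in control. Of 20 enterocyte markers 10 were higher and 1 lower, or 15 and 1 with the block, with sums of 13271 to 13704 CPM in BP-3 and 9041 to 10039 CPM in control. Of 18 tested erythrocyte markers 9 were higher and 0 lower, or 14 and 0 with the block, with sums of 1485 to 1908 CPM in BP-3 and 1031 to 1261 CPM in control. Of 26 skeletal muscle markers 0 passed in either direction, whereas 3 were higher and 12 lower with the block, the sum being 94.4% of control on average. No marker found was at 0 in all libraries.

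The rows most like histh1l over the 6 libraries were named by Pearson's r of log2 CPM among 19617 rows. The 5 closest, with r between 0.998 and 0.999, were NRSN1 (1 of many), mmp30, ptgs2b, grm1a and tob1b, all lower in BP-3. By log2 fold change the largest difference of these was that of ptgs2b, a cyclooxygenase gene of prostaglandin synthesis, with -1.38 ± 0.10 (SE), at 6.31 ± 0.342 CPM after exposure and 16.4 ± 1.01 CPM without it (SD, n = 3). With 2 groups of 3 libraries, any row that is lower in BP-3 with little spread within the groups comes close to 1, and one that is higher comes close to -1; 485 rows had r over 0.95. Among the members, h1f0 reached 0.996, h1fx 0.959 and the core variant h2afy2 0.835. The other core variants h2afx, h2afvb, h2afva and h2afy had 0.062, -0.305, -0.895 and -0.964.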

How the data were processed

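For each library the authors deposited raw counts of reads by gene name, from paired-end Illumina HiSeq sequencing per the labels' protocols. The genome build is given as mm9, a mouse build, in the submitters' processing notes, although the row names are zebrafish symbols, so no coordinates are given. What aligner, counting tool and annotation were used, and whether strand was, is not given in the sources used here. Whether reads of overlapping genes were told apart is therefore unknown.

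Library groups were taken from the titles. Rows were filtered with filterByExpr (8886 of 32053 removed), scaled with TMM and tested with edgeR 4.0.16 (glmQLFit and glmQLFTest, no covariates, two-sided) in R 4.3.3, with Benjamini-Hochberg adjustment over all 23167 rows and a threshold of 0.05. The test was first tested on simulated data. SEs and 95% intervals come from the quasi-likelihood F statistic. Total counts of 23567603 to 41726516 set the precision; counts of PCR copies are not independent molecules. Alternatives were DESeq2 1.42.0, limma-voom (limma 3.58.1), other scalings, no filter, a replicate block, libraries left out and rows of a name summed.

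Equal replicate numbers were checked for pairing: deviations from group means correlated at 0.18, 0.15 and 0.43 for numbers 1 to 3, each over 0.1, which meets the criterion used for pairing; the labels do not state any. The reported fit has no block, and the fit with the number as a block is given beside a result where it changes a call or moves a count by over 1.5 times. BP-3 replicate 1 correlated about as well with control replicate 2 (0.19), and BP-3 replicate 2 with control replicate 1 (0.17). The split therefore lies mainly between number 3 and the others. Since the deviations of a row sum to 0 within a group, that split alone can raise the values among numbers 1 and 2. For those numbers the criterion cannot show a pairing.

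The members and lists were chosen with earlier results of these data known. By a written rule, the text names every member, up to 4 members of a list with the smallest adjusted p, and the 5 rows most like the member with the smallest adjusted p; h2afx1, hist2h2l and the H3.3 rows were named after their values were seen. Plots were made in Python 3.11.15 with matplotlib 3.10.9.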

Additional observations from a re-analysis of the deposited data

How the results depend on the processing

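The falls of histh1l, h1fx and h1f0 kept their direction and passed the threshold in all 15 alternatives, with log2 fold changes of -1.02 to -0.93, -1.06 to -0.85 and -0.78 to -0.67 and highest adjusted p-values of 0.00547, 0.00963 and 0.0188. The number of members past the threshold was 3 throughout, except 4 with the replicate block, which added h2afva (log2 fold change 0.22, adjusted p = 0.0259 by edgeR). The block changed no other member's call; outside the members it added hist2h2l, an h3f3b.1 row and further list genes. The uncalled value of h2afx turned from -0.03 to between -0.18 and 0.12 with single libraries left out (positive without BP-3 replicate 2 or 3 or control replicate 2) and to 0.22 with BP-3 replicate 1 alone. The number of rows past the threshold, 2446, was 5026 with the replicate block, 435 with BP-3 replicate 1 alone and 3894 without both replicate 3 libraries. Leaving out single libraries gave 1084 to 2494, with 1242 without BP-3 replicate 1, 1084 without BP-3 replicate 2, 1245 without control replicate 1 and 1287 without control replicate 2; the cause was not tested. Other scalings moved the median log2 fold change of all rows by less than 0.1. Depth limits h1m, with 16 counts over all libraries.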

Other observations

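High mobility group proteins bind nucleosomes and linker DNA beside the linker histones, and their genes were set beside them. Of 15 tested genes 1 was lower and 0 higher, against 4.29% and 6.26% of all rows, with a median log2 fold change of 0.07 beside -0.001 for all rows. The nucleosome-binding gene hmgn3 fell from 190.1 ± 10.3 CPM in control to 149 ± 15.7 CPM in BP-3 (SD, n = 3; edgeR adjusted p = 0.0299), 1.28-fold lower. The abundant gene hmgb3a stood at 375 ± 10.7 CPM after exposure and 427 ± 22.1 CPM without it and did not pass (edgeR adjusted p = 0.119). Of opposite sign and also not past the threshold were hmgb2b, with a log2 fold change of 0.19 ± 0.073, and hmga2, with 0.25 ± 0.12 (SE; edgeR adjusted p = 0.138 and 0.212). With the replicate number as a block 2 of the 15 genes were higher, hmgb2b and hmga2, and 2 were lower, hmgn3 and hmgb3a (edgeR adjusted p = 0.0202, 0.00894, 0.00177 and 0.00651). In the fit with the block 11.9% of all rows were higher and 9.84% lower.

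A further list of 26 tested genes joins histone modifiers with the DNA damage response, in which H2A.X takes part. Of these genes 3 were higher and 1 lower, with a median log2 fold change of 0.08 (4 and 2 with the block). Across all tested rows 6.26% were higher and 4.29% lower, or 11.9% and 9.84% with the block. The cell cycle inhibitor gene cdkn1a rose from 6.93 ± 0.403 to 12.1 ± 1.09 CPM (SD, n = 3; edgeR adjusted p = 0.00193). The break repair gene rad50 rose 1.31-fold and the checkpoint kinase gene chek2 1.56-fold, while tp53bp1, whose product binds near DNA breaks, was 1.22-fold lower (edgeR adjusted p = 0.029, 0.0381 and 0.0401).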
